A study of Homo sapiens with 4 samples.

Results

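The subject is the baseline transcriptome of HGC-27 cells that received phosphate-buffered saline (PBS) and no cytokine. HGC-27 is an established human gastric carcinoma line of undifferentiated type. It was read from the 2 libraries labelled with PBS treatment, of 4 libraries in the series, and all libraries come from this 1 cell line. The other libraries received recombinant IL-17B and were not used. The cells were cultured adherently and collected 48 h after PBS, the liquid in which the cytokine was dissolved, had been added. Total RNA was copied from an oligo-dT primer and amplified by PCR with Smart-seq2, a protocol made for very small amounts of RNA. The labels do not say whether the replicates were separate cultures, so every SD below is the spread between 2 libraries, which may be technical. The protocol text of the labels speaks of monocytes while every sample field gives HGC-27, and monocyte markers are given below.

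Gastric carcinomas arise from a simple epithelium, a single layer of cells held together by E-cadherin and tight junctions and built on keratins 8 and 18. Epithelial cells that lose these contacts can take on mesenchymal features, with N-cadherin, vimentin, fibronectin and fibrillar collagens. In that state the factors SNAI1, SNAI2, ZEB1, ZEB2 and TWIST1 repress CDH1, the gene of E-cadherin. The description below follows these roles, and then the receptors, ligands and housekeeping functions of the cells.

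The files held 16155147 and 13101431 counts. After names turned into numbers and the repeated rows of a name were left out, the libraries held 15904594 and 12888029 counts on 26195 and 25632 gene names. Levels are CPM, the count of a gene scaled to a common library total. Where a pair of values is given, the first is PBS replicate 1 and the second PBS replicate 2. A gene was called expressed at 1 CPM or more in both libraries, abundant at 100 CPM or more in both, and silent at 0 counts in both. A count of 3 corresponds to 0.189 and 0.233 CPM, and this floor covers counting error only. Of 19264 protein-coding genes of the GENCODE 29 annotation, 12947 were expressed (67.2%), 1923 were abundant (9.98%) and 2596 were silent (13.5%). A further 1714 had at most 3 counts in both libraries without being silent, and the remaining 2007 were detected but below 1 CPM in at least 1 library. These shares are the background for each group of genes below. The lists and their members were chosen with earlier results of these data known. The files list no gene with 0 counts, so a silent gene cannot be told from a name that the counting did not use. Levels of different genes are compared per kilobase of merged exons, as CPM per kb with the SD of 2 libraries, and the median over all 19264 genes was 2.1 CPM per kb.

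The mRNA pool was led by fibronectin, fibrillar collagen and mitochondrial transcripts. FN1, which encodes the matrix glycoprotein fibronectin (chr2:215360440-215436172 in GENCODE 29), took more counts than any other gene, with 526938 and 418314 counts or 33131 and 32458 CPM. Next in counts came the mitochondrial ribosomal RNA MT-RNR2 with 23436 and 22777 CPM and MT-CO1, a subunit of cytochrome c oxidase, with 15448 and 15652 CPM. The remaining genes of the 10 highest were MT-ND4, MT-RNR1, COL1A1, MT-CO3, COL1A2, MT-CO2 and MT-ND2. COL1A1 and COL1A2 encode the chains of type I collagen, and they reached 7387 ± 175 CPM and 5382 ± 189.6 CPM. The 10 genes together took 11.9% and 11.8% of the counts. Genes of the mitochondrial genome took 8.80% ± 0.119 (SD, n = 2), of which the ribosomal RNAs made up 3.16% ± 0.0537 of all counts. Protein-coding genes took 94.998% ± 0.0540, long noncoding RNAs 0.887% ± 0.0114 and pseudogenes 0.835% ± 0.0157.

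Per kilobase the order changed. The 10 highest levels per kb all belonged to the mitochondrial genome, from MT-RNR2 at 14822 ± 299 CPM per kb down to MT-CYB at 2721 ± 58.6 CPM per kb, with MT-ND1 at 5037 ± 112 CPM per kb and MT-ATP6 at 3635 ± 69.9 CPM per kb. Further down came MT-ND3, MT-ND5, MT-ND4L and MT-ND6, at 1878 ± 149 CPM per kb, 1721 ± 87.4 CPM per kb, 1648 ± 133 CPM per kb and 846 ± 89.3 CPM per kb, respectively. The highest nuclear gene was FTL, the light chain of the iron store ferritin, at 2422 ± 132 CPM per kb. FN1 followed at 1894 ± 27.5 CPM per kb, over 17.3 kb of merged exons. RPL41P1, a processed copy of the ribosomal gene RPL41, was listed at 1869.8 ± 134 CPM per kb, and reads of such a copy and its parent cannot be told apart here. The thymosin TMSB10, which binds actin monomers, was at 1228 ± 3.17 CPM per kb. The cytoplasmic actins ACTG1 and ACTB, at 979 ± 1.28 CPM per kb and 939 ± 23.7 CPM per kb, followed.

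Promoter sequences of RefSeq (GRCh38.p14) were set beside these levels, to show how strongly expressed, silent and translation genes differ at their starts. Of the 19264 genes, 10978 had exactly 1 listed start and were used (56.99%). Each sequence covered 250 bases before the start and 50 bases from it, read on the strand of the gene. The translation machinery stood out by its first bases. A terminal oligopyrimidine start, here C at the start followed by at least 4 C or T, is the known mark of mRNAs whose translation follows growth signals. It was found at 41 of 53 ribosomal protein genes (77.4%) and 9 of 11 translation factor genes (81.8%). The share was 4.08% of all 34961 promoters, a wider set that is not limited to genes with 1 listed start. In the windows below, 15 bases before and 15 bases from the start are shown, and capitals mark the run of C and T that begins at a C start. They show the highest ribosomal protein genes, the highest translation factors and the highest other genes per kb with a single listed start.
RPS12, chr6:132814554-132814583, plus strand: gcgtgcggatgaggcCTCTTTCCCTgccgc
RPL7A, chr9:133348203-133348232, plus strand: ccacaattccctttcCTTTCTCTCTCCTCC
RPLP0, chr12:120201097-120201126, minus strand: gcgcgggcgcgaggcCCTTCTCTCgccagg
RPS18, chr6:33272060-33272089, plus strand: cgcgtcacttccgctCTCTCTTCCacagga
RPL10A, chr6:35468386-35468415, plus strand: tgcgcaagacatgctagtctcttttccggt
EEF1A1, chr6:73521018-73521047, minus strand: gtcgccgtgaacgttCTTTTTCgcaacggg
EEF2, chr19:3985449-3985478, minus strand: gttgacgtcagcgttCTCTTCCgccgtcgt
BTF3, chr5:73498427-73498456, plus strand: tgtcacttccggcctCCCTTTagctgccat
EIF4B, chr12:53006441-53006470, plus strand: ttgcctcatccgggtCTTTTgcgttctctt
FTL, chr19:48965294-48965323, plus strand: tagccacgtcccctcgcagttcggcggtcc
FN1, chr2:215436054-215436083, minus strand: tcccggcgctcggacgcccgcgccggctgt
TMSB10, chr2:84905641-84905670, plus strand: gggcgccgctcttttgtttcttgctgcagc
ACTG1, chr17:81512785-81512814, minus strand: gaggccgcggtcggtCTCagtcgccgctgc
TMSB4X, chrX:12975095-12975124, plus strand: cgcaccccgcccgacaactcggtggtggcc

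Of the 9 translation genes shown, 8 had the pyrimidine start. RPL10A did not, and its listed start lies just before a run of C and T. None of the 5 other genes had it, and ACTG1 had a run of only 3. The share with the pyrimidine start was between 2.24% in silent genes and 5.89% in the eighth decile of detected genes, with deciles ranked by level per kb. It was 11.2% in the highest decile and 21% in the 100 highest genes. Without the ribosomal protein genes among them, 6 of the remaining 79 had it (7.59%).

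CpG content was higher in the promoters of more highly expressed genes. The ratio of observed to expected CpG in the 250 bases before the start had a median of 0.244 in the 1651 silent genes and 0.348 in the lowest decile of detected genes. It was 0.823 in the fifth decile and 0.874 in the highest decile, so most of the difference lay among the lower deciles. The motif TATAAA between 40 and 20 bases before the start, searched on the strand of the gene, was most frequent at both ends. It was found in 10.5% of silent genes, in 0.751% of the seventh decile and in 5.04% of the highest decile. Among the 100 highest genes it was found in 16 (16%). The share was 2.26% of all promoters, a wider set that is not limited to genes with 1 listed start. The immediate early and stress genes held it at 6 of 15 promoters and the chaperones at 4 of 10. A match of these letters is a description of the window and not a measured binding site.

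Promoters of genes that carry the lineage and receptor results below show both kinds of sequence. Each line gives the 250 bases before the start on the strand of the gene (GRCh38.p14), with every CpG in capitals. FN1 and POSTN stand for the matrix genes, KRT8 for the keratins, PPBP for the platelet genes, PTPRZ1 for the glial genes, IL17RB for the receptor of the cytokine under study, and GKN1 for the silent genes of the stomach.
FN1, chr2:215436069-215436318, minus strand: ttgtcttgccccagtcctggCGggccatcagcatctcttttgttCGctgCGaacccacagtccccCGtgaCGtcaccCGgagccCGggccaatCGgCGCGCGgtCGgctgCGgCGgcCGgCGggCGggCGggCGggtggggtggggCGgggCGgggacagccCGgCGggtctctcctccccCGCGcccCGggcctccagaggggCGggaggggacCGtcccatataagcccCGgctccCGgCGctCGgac
POSTN, chr13:37598769-37599018, minus strand: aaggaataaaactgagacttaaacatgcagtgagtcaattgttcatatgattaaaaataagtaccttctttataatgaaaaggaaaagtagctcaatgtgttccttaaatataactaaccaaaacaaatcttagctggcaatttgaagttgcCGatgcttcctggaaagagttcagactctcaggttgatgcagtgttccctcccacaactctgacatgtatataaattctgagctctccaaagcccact
KRT8, chr12:52926470-52926719, minus strand: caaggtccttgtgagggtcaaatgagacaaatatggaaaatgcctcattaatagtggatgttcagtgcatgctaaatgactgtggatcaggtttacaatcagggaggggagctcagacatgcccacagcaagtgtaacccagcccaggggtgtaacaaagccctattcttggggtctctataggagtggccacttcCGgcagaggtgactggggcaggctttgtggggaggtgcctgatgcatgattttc
PPBP, chr4:73988191-73988440, minus strand: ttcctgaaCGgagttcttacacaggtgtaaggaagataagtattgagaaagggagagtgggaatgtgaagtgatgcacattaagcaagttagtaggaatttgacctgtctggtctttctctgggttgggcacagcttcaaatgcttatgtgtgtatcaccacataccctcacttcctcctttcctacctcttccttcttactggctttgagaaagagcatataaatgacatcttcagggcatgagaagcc
PTPRZ1, chr7:121872911-121873160, plus strand: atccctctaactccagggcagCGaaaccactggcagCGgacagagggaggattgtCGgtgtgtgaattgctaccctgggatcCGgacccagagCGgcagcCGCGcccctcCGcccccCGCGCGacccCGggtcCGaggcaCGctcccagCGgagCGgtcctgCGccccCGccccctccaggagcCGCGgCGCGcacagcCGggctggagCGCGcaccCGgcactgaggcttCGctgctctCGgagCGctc
IL17RB, chr3:53846318-53846567, plus strand: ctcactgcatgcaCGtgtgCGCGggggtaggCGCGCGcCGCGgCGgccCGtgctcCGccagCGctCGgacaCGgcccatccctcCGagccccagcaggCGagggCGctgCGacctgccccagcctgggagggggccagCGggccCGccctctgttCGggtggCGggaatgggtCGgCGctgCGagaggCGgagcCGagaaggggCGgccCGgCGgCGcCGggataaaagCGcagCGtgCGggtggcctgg
GKN1, chr2:68974386-68974635, plus strand: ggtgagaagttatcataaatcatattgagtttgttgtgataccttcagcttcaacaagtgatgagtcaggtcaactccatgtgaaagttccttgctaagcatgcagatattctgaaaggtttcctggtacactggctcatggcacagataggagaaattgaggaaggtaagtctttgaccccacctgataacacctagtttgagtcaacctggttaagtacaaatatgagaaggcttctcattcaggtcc

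High expression was found with either kind of promoter. FN1 had 32 CpG and POSTN, which encodes the matrix protein periostin, had 1 CpG and a TATAAA, although both were abundant. The window shown for KRT8 held 1 CpG, that of PPBP 1 beside a TATAAA, that of PTPRZ1 29 and that of IL17RB 35. Counts per gene name do not show which start was used. Whether the counted transcripts of KRT8 or the other genes began at the listed start was not tested. The promoter of GKN1, which encodes the stomach protein gastrokine, held no CpG, and the gene had 0 counts in both libraries.

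All 30 genes of the mesenchymal panel were expressed and 22 were abundant, against 67.2% and 9.98% of all protein-coding genes. Their median level was 76.9 CPM per kb, the highest of the 17 marker panels. VIM, the gene of the intermediate filament vimentin, was at 727 and 706 CPM and CDH2, the gene of N-cadherin, at 125 and 130.0 CPM. Exons of VIM overlap other annotated genes over 24.4% of their length, and reads in such overlaps may not have been counted. ZEB1, a repressor of CDH1, was at 116 and 123 CPM. The other repressors were SNAI1 with 22.8 and 19.6 CPM, SNAI2 with 42.8 and 36.8 CPM, ZEB2 with 60.6 and 60.2 CPM and TWIST1 with 13.3 and 9.78 CPM. All of the named repressors were therefore expressed in both libraries, with ZEB1 the only abundant one.

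The matrix genes of this panel were among the highest in the cells. COL3A1, the chain of type III collagen, reached 4145 and 3871 CPM. SPARC, a collagen-binding glycoprotein, reached 3779.5 and 3801 CPM. The small proteoglycans DCN (decorin) and LUM (lumican) were at 1115 and 1007 CPM and 393 and 342 CPM, respectively, and POSTN was at 988 and 885 CPM. These genes are best known from fibroblasts, as are the growth factor receptors PDGFRA (153 and 164 CPM) and PDGFRB (166 and 179.9 CPM). Among all collagen chains, 34 of 44 were expressed (77.3%) and 15 were abundant, against 67.2% and 9.98% of all protein-coding genes.

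The smooth muscle and myofibroblast panel was expressed in full, 15 of 15 against 67.2% of all protein-coding genes, with a median of 5.54 CPM per kb. Its high members were contractile genes that many adherent cells use, such as TAGLN with 934 and 958 CPM (transgelin) and TPM2 with 689 and 650.4 CPM (tropomyosin). ACTA2, the gene of smooth muscle actin, was at 317 and 309 CPM and CNN1 (calponin) at 43.7 and 42.6 CPM. MYL9, a myosin light chain, was at 518 and 483 CPM and CALD1 (caldesmon) at 1321 and 1238 CPM. Among genes more restricted to muscle, SMTN (smoothelin) was at 26.4 and 27.4 CPM, LMOD1 (leiomodin) at 22.3 and 21.7 CPM and the enteric actin ACTG2 at 15.8 and 19.2 CPM. The lowest included MYH11 at 2.77 and 4.58 CPM, DES (desmin) at 1.45 and 1.32 CPM and MYOCD at 1.45 and 1.47 CPM.

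The simple epithelium panel was split. Only 13 of 30 genes were expressed (43.3%), 3 of them abundant, and all 3 were keratins: KRT8 with 601 and 611 CPM, its partner KRT18 with 169 and 165 CPM, and KRT7 with 211 and 197 CPM. CDH1, which holds epithelial cells together, had 7 and 8 counts, or 0.4401 and 0.621 CPM, and was not expressed. EPCAM, a surface adhesion molecule of epithelia, was at 3.395 and 3.03 CPM and KRT19 at 2.96 and 3.34 CPM. The splicing factor ESRP1 and the transcription factor GRHL2, which maintain epithelial identity, each had 0 counts in PBS replicate 1 and 1 in PBS replicate 2, within the floor. OVOL1, OVOL2, CEACAM6 and LAD1 were silent. ELF3, another epithelial transcription factor, was expressed at 8.99 and 10.1 CPM, AP1M2, which sorts proteins to the basolateral membrane, at 14.2 and 12.5 CPM, and LSR, of tricellular junctions, at 12.4 and 13.7 CPM. The abundant keratins therefore stood beside 17 members of the panel that were not expressed. Of all 55 keratin genes 9 were expressed and 28 were silent.

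The gastric mucosa panel was nearly absent. Of its 22 genes 2 were expressed, CLDN18 with 1.63 and 1.71 CPM and ANXA10 with 1.19 and 1.09 CPM, and 10 were silent. The silent genes included TFF1, a secreted trefoil peptide of the surface mucous cells, GKN1 and the pepsinogen gene PGC. ATP4A, a subunit of the acid pump, had 1 and 0 counts. MUC5AC, the main surface mucin of the stomach, had 2 and 19 counts and was above 1 CPM only in PBS replicate 2. BHLHA15 and AQP5 had 10 and 4 counts and 5 and 6 counts, respectively. PGA3, PGA4 and PGA5 are near-identical copies, and reads shared by them may have been dropped. None of the 5 defining markers, MUC5AC, TFF1, GKN1, ATP4A and PGC, was expressed, and no gene of the panel reached 2 CPM in either library.

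In the intestine panel 3 of 20 genes were expressed and 9 were silent. CDX2, the transcription factor of intestinal identity, was at 1.95 and 2.02 CPM, VIL1 (villin) at 3.65 and 2.72 CPM and ALPI (intestinal alkaline phosphatase) at 29.5 and 33.1 CPM. MUC2, CDH17 and FABP1 had 2 and 4 counts, 1 and 1 counts and 0 and 0 counts, respectively, and CDX1 had 0 and 3 counts. In the squamous and basal panel 5 of 20 were expressed, and the abundant ones were PERP with 241 and 227 CPM, JUP with 201 and 224 CPM and KRT17 with 109 and 107 CPM. SFN (stratifin) was at 64.1 and 61.5 CPM. The defining basal genes KRT5, KRT14 and DSG3 were silent, TP63 was at 0.503 and 0.388 CPM and KRT6A had 0 and 1 counts.

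**Figure D1:**
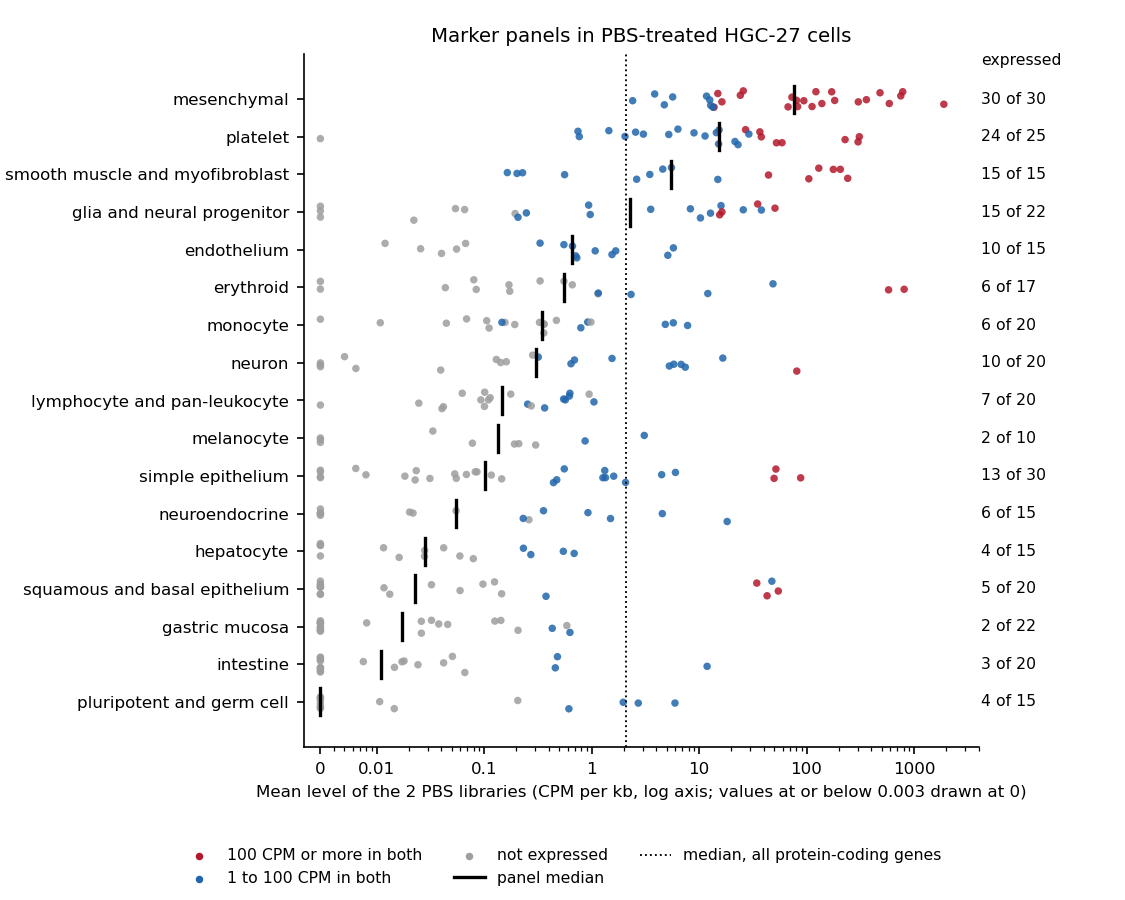
Levels of every member of the 17 marker panels (mean of the 2 PBS libraries in CPM per kb, log axis; values at or below 0.003 are drawn at 0). Each point is a gene, the bar is the panel median and the dotted line is the median of all 19264 protein-coding genes, 2.1. The numbers at the right give how many members were expressed; the mesenchymal panel had 30 of 30 and the gastric mucosa panel 2 of 22.

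Blood cell panels gave unlike results. In the monocyte panel 6 of 20 genes were expressed, against 67.2% of all protein-coding genes, none was abundant, and the median was 0.344 CPM per kb. The highest per kb were FCER1G, a signalling chain of Fc receptors that platelets also use, with 8.87 and 6.21 CPM, HLA-DRA with 7.29 and 7.45 CPM, and the calcium-binding S100A9 and S100A8 with 2.26 and 3.34 CPM and 1.13 and 0.854 CPM, respectively. CD14 was at 1.45 and 1.55 CPM, CSF1R at 3.898 and 5.59 CPM, and LYZ (lysozyme), among the highest mRNAs of monocytes, had 1 and 4 counts. TYROBP had 8 and 2 counts and SPI1 had 8 and 11 counts, so 2 of the 5 defining markers were expressed. In the lymphocyte and pan-leukocyte panel 7 of 20 were expressed, the highest being CD4 with 4.21 and 5.43 CPM, and none reached 6 CPM. NKG7 was at 0.377 and 1.397 CPM, LCP1 at 3.65 and 2.72 CPM and CORO1A at 2.64 and 3.41 CPM. PTPRC, the common leukocyte antigen, was at 2.96 and 1.71 CPM. CD3E had 1 and 1 counts and CD3D was silent, so that 1 of the 5 defining markers was expressed.

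Genes of platelets and their precursors were expressed as a group. This panel of 25 genes and the erythroid panel were written after the values had been seen, so their counts are a description only. Of the platelet genes 24 were expressed and 8 were abundant, against 67.2% and 9.98% of all protein-coding genes. Their median was 15.2 CPM per kb. PPBP, the precursor of platelet basic protein, was at 242 and 201 CPM (309.8 ± 40.7 CPM per kb) and PF4, platelet factor 4, at 181 and 184 CPM (301 ± 3.52 CPM per kb). GP9 was at 14.3 and 12.96 CPM, ITGA2B, the alpha chain of the fibrinogen receptor, was at 151 and 150.1 CPM and TUBB1, the tubulin of platelets, at 76.1 and 85.04 CPM. NRGN, also known from neurons, was at 300.5 and 297 CPM. The remaining abundant genes were GNG11, CAVIN2, F13A1 and RGS18. Levels were uneven within the panel. Members below the median of all protein-coding genes per kb included GP1BA, SELP, GP6 and CLEC1B, at percentiles 49.6, 45.4, 39.4 and 39.2. The only member without counts was GP1BB, whose exon bases are overlapped over 100% by other annotated genes, so that its reads may not have been counted. The panel as a whole took 0.194% and 0.183% of the counts. In bulk RNA, fewer cells of a type and less RNA per cell cannot be told apart, and whether these transcripts came from the same cells as the matrix genes was not tested.

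Globins were the only abundant genes of the erythroid panel. HBB, the beta chain of adult haemoglobin, was at 1103 and 1007 CPM (809 ± 51.9 CPM per kb), and HBA2, an alpha chain, at 269 and 689 CPM. HBA1 and HBA2 share most of their sequence, so their split is uncertain. Beyond the globins, ALAS2, which makes haem in red cell precursors, was at 5.596 and 4.35 CPM and HEMGN at 2.58 and 2.95 CPM. The red cell surface gene GYPB was silent and KLF1 had 1 and 1 counts. In all, 6 of the 17 erythroid genes were expressed, and 4 of these were globins.

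In the endothelium panel 10 of 15 genes were expressed (66.7%, against 67.2% of all protein-coding genes), all between 1.26 and 15.5 CPM in each library. They included the 5 defining markers, PECAM1, CDH5, VWF, KDR and TEK. PECAM1 was at 5.03 and 5.28 CPM, VWF at 6.29 and 5.199 CPM and ESAM at 14.5 and 15.4 CPM, and these genes are also used by platelets. EGFL7 was highest per kb, with 13.96 and 15.5 CPM, CLDN5 was at 5.34 and 5.28 CPM and TEK, the angiopoietin receptor, at 5.34 and 5.04 CPM. TIE1 had 3 and 2 counts, ERG had 6 and 3 counts and EMCN had 2 and 0 counts. CDH5, the cadherin of endothelium, differed between the libraries, with 1.89 and 6.98 CPM.

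Of 22 glial and neural progenitor genes 15 were expressed (68.2%, against 67.2% of all protein-coding genes) and 4 were abundant. The median of 2.26 CPM per kb was also near that of all genes, and 2 of the 5 defining markers, SOX2 and OLIG2, were expressed. PTPRZ1, a receptor phosphatase of glial precursors, had 4250 and 5527 counts, or 267 and 429 CPM. NES, the intermediate filament nestin of neural progenitors, had 220.1 and 345 CPM. SOX2, a transcription factor of stem and neural progenitor cells that the study used as a stemness marker, had 75.5 and 116 CPM. The oligodendrocyte lineage factors OLIG1 and OLIG2 had 46.3 and 71.1 CPM and 39.9 and 67.4 CPM, respectively. The myelin genes CNP and MBP were at 91.1 and 98.6 CPM and 19.2 and 16.99 CPM, respectively. The glutamate transporter SLC1A3 was at 62.1 and 66.96 CPM and S100B at 2.83 and 7.45 CPM. SOX10, MAG and HES5 were silent, GFAP was at 0.692 and 0.621 CPM, MOG had 3 and 3 counts and AQP4 had 3 and 1 counts. In the neuron panel 10 of 20 were expressed (50%), led per kb by UCHL1 with 173 and 198 CPM and GAP43, a protein of growing axons, with 28.6 and 40.8 CPM. STMN2 (stathmin-2) was at 21.6 and 13.6 CPM, the synaptic protein SNAP25 at 22.8 and 22.9 CPM, the microtubule protein MAP2 at 57.3 and 77.2 CPM and the neurofilament NEFH at 20.2 and 19.8 CPM. SYT1 was at 4.65 and 4.35 CPM and TUBB3 at 1.51 and 1.32 CPM, so that 4 of the 5 defining markers were expressed. The remaining one, RBFOX3, had 5 and 6 counts, and NEFL, DCX and ELAVL4 were silent.

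The replicates agreed for most genes, and the glial genes were among those that differed. Of 16860 genes with 10 counts or more in at least 1 library, 180 (1.07%) lay at least 2-fold apart after 0.5 CPM was added, 60 higher in PBS replicate 1 (0.356%) and 120 higher in PBS replicate 2 (0.712%). Among 11155 genes with 100 counts or more there were 5. The chi-square of the counts was 2.64 per degree of freedom, so the libraries differed by more than counting error and were counted as 2 samples. The SD of the log2 ratio between libraries was 0.19 for genes with a mean of 100 to 1000 counts, where counting alone gives 0.12, and 0.12 for genes with 1000 to 10000 counts.

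Within the glial panel 13 of 15 expressed genes read higher in PBS replicate 2, with a median log2 ratio of 0.61. Over all 12947 expressed protein-coding genes 55.1% read higher in that library, with a median of 0.02. PTPRZ1 differed by a log2 ratio of 0.68, NES by 0.65, OLIG2 by 0.75 and SOX2 by 0.61, each more than 3 times the SD of genes with like counts. The summed level of the panel was 1116 CPM in PBS replicate 1 and 1570.2 CPM in PBS replicate 2. PDGFRA and CNP, which other cells also express, differed less, by 0.10 and 0.11. The mesenchymal panel did not move in this way, with 11 of 30 genes higher in PBS replicate 2 and a median of -0.04, nor did the platelet panel, with 4 of 24 and a median of -0.09. With 1 library against 1 no test of these differences is possible, and their part in other results was not tested. The panels were chosen with earlier results of these data known, so the counts above are a description only.

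The largest differences between the replicates with 100 counts or more included the globins in opposite directions. HBA2 read higher in PBS replicate 2, with 269 and 689 CPM, and so did HBA1, with 25.5 and 55.9 CPM. HBG2, a fetal gamma chain, read higher in PBS replicate 1, with 14.5 and 6.44 CPM, while HBB was close in both. BOC, a co-receptor of Hedgehog ligands, and KIF1A, a motor of axonal transport, read higher in PBS replicate 2, with 12.1 and 26.3 CPM and 13.8 and 28.1 CPM. SMN1 and AVIL read higher in PBS replicate 1, with 23.8 and 12.5 CPM and 8.24 and 4.58 CPM, and SMN1 shares nearly all of its sequence with SMN2. The other genes of the 10 most different were DHFRP1, higher in PBS replicate 2 with 4.53 and 11.3 CPM, and LSM12P1 and AC078817.1, higher in PBS replicate 1 with 10.4 and 5.897 CPM and 13.4 and 7.53 CPM, respectively. Of the Notch and Hedgehog receptors, all 10 of which were expressed, 8 read higher in PBS replicate 2, with a median log2 ratio of 0.30.

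**Figure D2:**
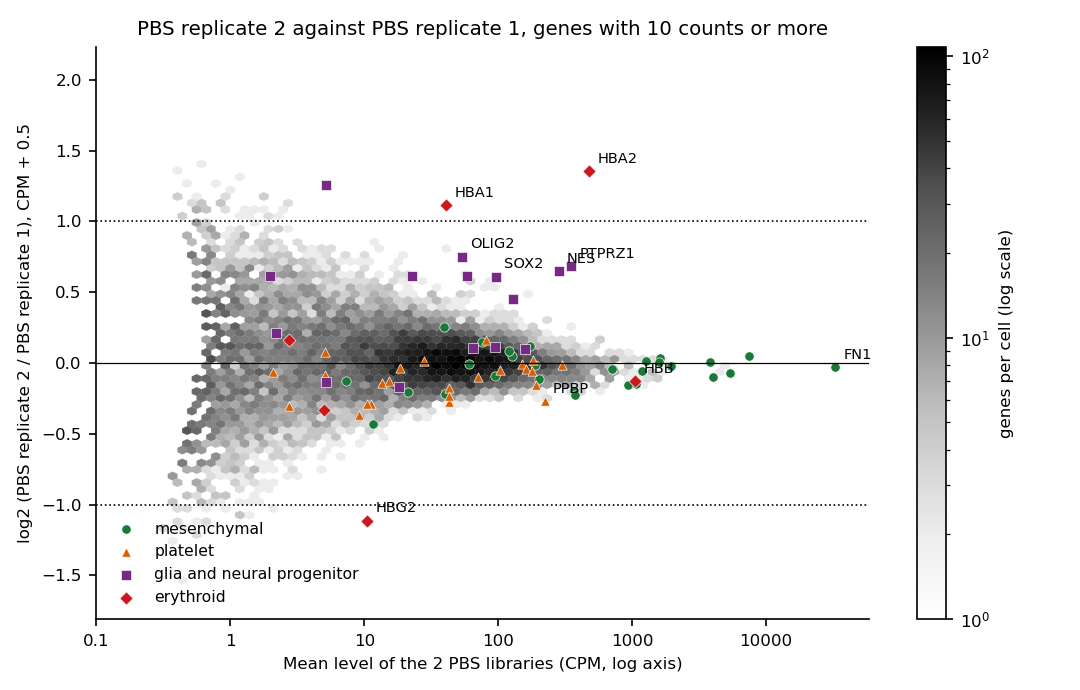
Difference between the PBS replicates (log2 of replicate 2 over replicate 1, with 0.5 CPM added) against mean level (CPM, log axis) for genes with 10 counts or more; grey cells count genes, symbols are expressed members of 4 panels, and dotted lines mark 2-fold. Most glial genes, such as PTPRZ1 and SOX2, lie above the line of equality, the platelet and mesenchymal genes lie near it, and HBA2 and HBG2 lie on opposite sides.

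Panels of other lineages had expressed shares under the 67.2% of all protein-coding genes. In the neuroendocrine panel 6 of 15 genes were expressed, with the prohormone convertase PCSK1 highest at 100.4 and 93.3 CPM and CHGA with 2 and 0 counts. SCG2, CHGB and NEUROD1 were at 10.9 and 13.8 CPM, 6.16 and 7.45 CPM and 2.33 and 3.802 CPM, respectively, and SYP was at 2.33 and 1.397 CPM. In the hepatocyte panel 4 of 15 were expressed, the highest in counts being APOB with 8.05 and 8.15 CPM, and ALB (albumin) had 3 and 0 counts. AHSG was highest per kb, with 1.07 and 2.17 CPM, and 1 of the 5 defining markers, SERPINA1, was expressed, with 1.19 and 1.47 CPM. In the melanocyte panel 2 of 10 were expressed, MITF with 23.5 and 20.9 CPM and TYRP1 with 3.33 and 3.18 CPM, while PMEL was at 0.8802 and 1.47 CPM and MLANA at 0.754 and 0.543 CPM. In the pluripotent and germ cell panel 4 of 15 were expressed, led by SALL4 with 36.2 and 32.7 CPM and followed by PRAME with 9.75 and 10.8 CPM and DPPA2 with 2.58 and 2.87 CPM, while 8 genes including LIN28A were silent.

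Positional and regional identity was read from transcription factors. HOX genes encode factors that mark the position of a cell along the body axis, in 4 clusters. Of 39 genes 29 were expressed (74.4%, against 67.2% of all protein-coding genes), none abundant, and 4 were silent. Per kb the highest were HOXB7 with 11.5 ± 0.0911 CPM per kb, HOXC8 with 9.62 ± 0.473 CPM per kb, HOXA5 with 8.302 ± 0.2805 CPM per kb and HOXC4 with 7.803 ± 1.25 CPM per kb. HOXB3 had the most counts of the group, with 43.9 and 56.3 CPM. All clusters contributed, but within HOXD only HOXD8 with 7.67 and 4.89 CPM, HOXD9 with 1.45 and 2.33 CPM and HOXD10 with 1.698 and 2.56 CPM were expressed. In the HOXA cluster HOXA3, HOXA9, HOXA10 and HOXA11 were at 8.24 and 7.53 CPM, 6.92 and 6.05 CPM, 6.79 and 6.75 CPM and 9.49 and 7.68 CPM, respectively, and HOXA6 and HOXA7 at 1.57 and 1.71 CPM and 2.96 and 3.802 CPM. In the HOXC cluster HOXC6 was at 19.1 and 19.8 CPM, HOXC9 at 6.98 and 7.53 CPM, HOXC10 at 15.3 and 16.4 CPM and HOXC11 at 1.51 and 1.71 CPM. HOXB2, HOXB4, HOXB5, HOXB6, HOXB8 and HOXB9 lay between 6.28 and 17.4 CPM in each library. In the HOXB cluster every gene except HOXB1 was expressed. The expressed genes extended from HOXA2 with 2.201 and 2.02 CPM to the last paralogues HOXA13, HOXB13 and HOXC13, with 2.201 and 3.34 CPM, 6.35 and 5.51 CPM and 5.596 and 5.66 CPM, respectively. No HOX gene was above the mean of HOXB3, 50.1 ± 8.800 CPM.

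**Figure D3:**
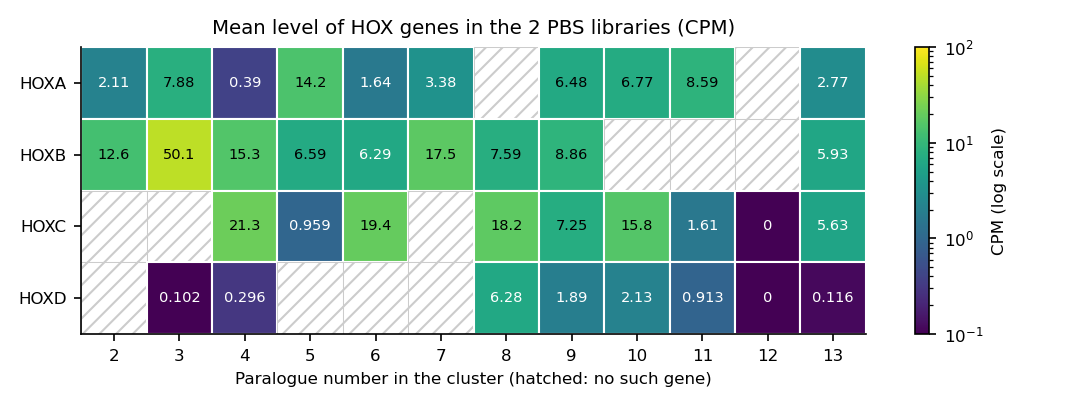
Mean level of HOX genes from the second paralogue on in the 2 PBS libraries in CPM (colour on a log scale, number in each cell), arranged by cluster (rows) and paralogue number (columns); hatched cells have no gene. HOXB3 is the highest, at 50.1 CPM, and the HOXD row holds 3 expressed genes.

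Factors of the gut endoderm were mostly absent. Of 20 genes 7 were expressed and 5 were silent, among them FOXA2, HNF4A, SOX17 and BARX1, the last a factor of the stomach mesenchyme. The highest per kb were KLF5 with 38.3 and 40.04 CPM, SOX21 with 13.8 and 20.4 CPM and GATA6 with 15.2 and 11.4 CPM. GATA4 was at 2.77 and 3.104 CPM and FOXA1 at 2.83 and 1.94 CPM. SOX21, also known from neural progenitors, read higher in PBS replicate 2.

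The paper describes the cytokine of the study as binding the receptor IL17RB, which recruits the ubiquitin ligase TRAF6. IL17RB had 86 and 61 counts, or 5.41 and 4.73 CPM and 1.67 ± 0.157 CPM per kb, below the median of all protein-coding genes. The chain IL17RA was at 35.6 and 33.1 CPM and 3.802 ± 0.192 CPM per kb. IL17RC, which pairs with IL17RA for other ligands, was at 32.6 and 34.8 CPM and 7.42 ± 0.332 CPM per kb. IL17RD was at 13.7 and 19.4 CPM, IL17RE at 3.02 and 2.17 CPM and IL17REL at 0.251 and 0.233 CPM. Of the 6 receptor genes 5 were expressed, with IL17RB below IL17RC and IL17RA per kb and within the spread of IL17RD (1.73 ± 0.421 CPM per kb). The ligand IL17B itself had 3 and 6 counts, or 0.189 and 0.466 CPM, and IL17C had 2 and 0 counts. IL17A, IL17F and IL25 were silent, and IL17D was the only expressed ligand, at 2.39 and 1.63 CPM. All 25 adaptor and signalling genes of the IL-17 family list were expressed, against 67.2% of all protein-coding genes. TRAF6 was at 15.1 and 14.7 CPM, the adaptor TRAF3IP2 at 22.7 and 23.2 CPM and RELA, a subunit of NF-κB, at 82.3 and 83.3 CPM. Per kb the highest were HSP90AB1, TRAF4, CEBPB and TAB2. HSP90AB1 was at 547 ± 20.05 CPM per kb, and TRAF4, CEBPB and TAB2 were at 19.97 ± 1.56 CPM per kb, 18.1 ± 0.689 CPM per kb and 17.1 ± 0.727 CPM per kb.

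Of 13 stemness genes 9 were expressed (69.2%, near the 67.2% of all protein-coding genes). The list holds markers that the study measured, SOX2, SOX9, THY1 (CD90), POU5F1 (OCT4), NANOG, LGR5 and PROM1 (CD133), and commonly used markers that were added to them. SOX2 is described above. MYC was at 202 and 214 CPM, CD44 at 179.7 and 170.2 CPM, SOX9 at 44.7 and 62.5 CPM, THY1 at 72.1 and 80.00 CPM, KLF4 at 43.2 and 45.2 CPM and BMI1 at 36.1 and 33.8 CPM. POU5F1 was at 2.01 and 1.55 CPM, and reads of its processed copies may be counted with it or dropped. NANOG was silent, ALDH1A1 had 0 and 1 counts. LGR5 was at 0.4401 and 0.776 CPM and PROM1 at 0.4401 and 0.543 CPM. Per kb the list was led by MYC with 69.3 ± 2.87 CPM per kb, SOX2 with 38.01 ± 11.3 CPM per kb and CD44 with 17.5 ± 0.669 CPM per kb, while NANOG, ALDH1A1, LGR5 and PROM1 were under the threshold. Of the differentiation and tumour markers KRT18, CCND1 with 178 and 157 CPM, MKI67 with 226 and 219 CPM and MUC1 with 20.8 and 23.4 CPM were expressed, and KRT14 was silent. All 9 autophagy genes were expressed. ATG5, ULK1 and PIK3C3 are general autophagy genes added to those that the study measured. SQSTM1, which encodes the cargo receptor p62, was at 499.7 and 503 CPM, MAP1LC3B at 144 and 130.3 CPM, BECN1 (Beclin-1) at 41.5 and 42.3 CPM, ATG5 at 45.5 and 43.8 CPM and ATG7 at 33.01 and 30.3 CPM. The kinase genes ULK1 and PIK3C3 were at 142 and 154 CPM and 38.9 and 40.4 CPM, and MAP1LC3A was at 11.8 and 11.02 CPM.

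Receptors of other signals ranged from complete to nearly absent groups. Cytokine receptors were expressed for 27 of 52 genes (51.9%). Highest per kb were IL6ST, the shared chain of the IL-6 family, with 369 and 352 CPM and OSMR with 208 and 207 CPM. IL13RA1 followed with 107 and 103 CPM and IFNGR1 with 48.1 and 47.1 CPM. The TNF receptor family was expressed for 18 of 29 (62.1%, near the 67.2% of all protein-coding genes). TNFRSF1A was at 174 and 178 CPM and TNFRSF12A at 80.4 and 79.7 CPM. TNFRSF10B, a death receptor of TRAIL, was at 195.5 and 189 CPM, and LTBR, the lymphotoxin receptor, at 147 and 146 CPM. The list of Toll-like receptors, sensors and their adaptors was expressed for 16 of 26 (61.5%). Highest per kb were the adaptor MYD88 at 35.6 and 39.03 CPM, TICAM1 at 22.8 and 25.9 CPM, MAVS at 99.8 and 99.6 CPM and STING1 at 26.2 and 27.9 CPM. Every Toll-like receptor gene itself lay below the median of all protein-coding genes per kb. TLR4 was the highest of them, at percentile 46.7, and TLR10 was silent. Of 22 chemokine receptors 3 were expressed, CXCR4 with 31.2 and 34.2 CPM, ACKR3 with 20.7 and 17.1 CPM and CCR7 with 1.32 and 1.09 CPM, and 8 were silent. The chemokine receptors lay furthest below the background share of 67.2% among these groups.

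Of 58 receptor tyrosine kinases 39 were expressed (67.2%, the share of all protein-coding genes) and 8 were abundant, led per kb by the collagen receptor DDR2 with 354 and 332 CPM, the hepatocyte growth factor receptor MET with 205 and 182 CPM, DDR1 with 202 and 266 CPM and PDGFRB. Integrins were expressed for 19 of 26 (73.1%), led by ITGB1 with 1425 and 1341 CPM, ITGA5 with 569.6 and 565 CPM, ITGAV with 441 and 418 CPM and ITGB5 with 316 and 303 CPM. ITGA5 and ITGB1 together form the main receptor of fibronectin. TGF-beta and BMP receptors were expressed for 12 of 14 (85.7%), with TGFBR2 at 204 and 205 CPM, ENG at 158 and 154 CPM, TGFBR1 at 101 and 98.9 CPM and ACVR1 at 58.9 and 54.3 CPM. Wnt receptors were expressed for 13 of 17 (76.5%). Highest per kb were FZD6 with 83.7 and 72.9 CPM and LRP5 with 103 and 105 CPM. FZD2 followed with 31.2 and 30.7 CPM and LGR4 with 79.3 and 82.2 CPM. All 10 Notch and Hedgehog receptors were expressed, with NOTCH2 highest at 426 and 423 CPM, and with GAS1 at 59.5 and 61.8 CPM, NOTCH3 at 77.7 and 87.1 CPM and NOTCH1 at 57.4 and 67.1 CPM. Of 48 nuclear receptors 32 were expressed (66.7%), led per kb by NR2F1 with 105 and 109.9 CPM, NR1H2 with 62.1 and 62.7 CPM, the glucocorticoid receptor NR3C1 with 154 and 143 CPM and RXRB with 52.6 and 54.5 CPM, and HNF4A, PGR, NR1I2, NR1H4 and NR0B2 were silent.

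Of 59 growth factors and cytokines 58 could be matched. Of these 51 were expressed (87.9%) and 10 were abundant, against 67.2% and 9.98% of all protein-coding genes. CCN2, a matrix-associated factor induced by TGF-beta and YAP, was highest with 802 and 776 CPM. Next per kb were the neutrophil attractant CXCL8 at 176 and 165 CPM, GDF15, a stress-induced factor, at 136 and 133 CPM, and the chemokine CCL5 at 95.4 and 91.9 CPM. Among the ligand families of the genome 9 of 19 WNT genes were expressed, with WNT5A highest per kb, 7 of 22 FGF genes, with FGF2 highest, and 12 of 38 interleukins, with IL18 highest.

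Genes that guide treatment of gastric cancer were all expressed, 16 of 16, with 6 abundant. Over all protein-coding genes the shares were 67.2% and 9.98%. TOP2A and TOP1, the topoisomerases that drugs such as irinotecan and etoposide act on, were at 324 and 306 CPM and 152 and 146 CPM. MET was described above, EGFR was at 161 and 191 CPM, VEGFA at 304 and 293 CPM, ERBB2 (HER2) at 61.7 and 69.1 CPM and FGFR2 at 35.5 and 36.2 CPM. ERBB2 was thus expressed but not abundant. The mismatch repair genes MSH6 and PMS2 were at 142 and 129.9 CPM and 18.1 and 17.3 CPM, respectively. TYMS, the target of fluoropyrimidines, and DPYD, which breaks them down, were at 22.2 and 19.2 CPM and 27.8 and 26.2 CPM. KDR was at 8.99 and 13.04 CPM, CD274 (PD-L1) at 4.02 and 3.104 CPM and CLDN18 near the threshold, at 1.63 and 1.71 CPM.

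Of 20 tumour suppressors and oncogenes 18 were expressed (90%, against 67.2% of all protein-coding genes), and CDH1 and TERT were the exceptions. TERT, the catalytic subunit of telomerase, had 0.692 and 0.931 CPM. RHOA, which is often mutated in diffuse gastric cancer, was at 680.0 and 656 CPM, MYC as above, CDKN2A at 182 and 192 CPM, CTNNB1 at 350.4 and 375 CPM and RB1 at 89.3 and 83.2 CPM. ARID1A was at 116 and 134 CPM, PIK3CA at 41.4 and 38.5 CPM and SMAD4 at 46.8 and 48.8 CPM. APC was at 70.4 and 72.6 CPM, MDM2 at 98.5 and 93.8 CPM, MTAP at 44.1 and 39.3 CPM, CDKN2B at 67.7 and 60.5 CPM, CCNE1 at 9.87 and 10.6 CPM and RUNX3 at 4.72 and 5.04 CPM. Counts of a gene do not show whether its transcript carries a mutation.

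Genes of antigen presentation were expressed for 15 of 17 (88.2%, against 67.2% of all protein-coding genes). B2M, the shared chain of class I molecules, was at 2951 and 2619 CPM and HLA-E at 498 and 468 CPM, with HLA-B at 185 and 167 CPM. The class II genes HLA-DRA and CD74 were at 7.29 and 7.45 CPM and 38.2 and 37.8 CPM, while HLA-DQA1 was silent. The HLA genes are highly polymorphic and alike in sequence, so reads may be lost or shared among them.

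Housekeeping functions were expressed nearly in full, against 67.2% of all protein-coding genes. All 79 cytosolic ribosomal protein genes were expressed, 63 abundant, with a median of 106 CPM per kb, and they took 3.27% and 3.11% of the counts. RPS2, RPS12, RPL19 and RPL7A led per kb. The lowest were RPS10 with 1.57 and 1.16 CPM and RPL17 with 1.82 and 1.16 CPM, whose exons are overlapped on the same strand by read-through genes over 39.4% and 32.7% of their length. Of 20 translation factors 19 were expressed, with EEF1A1 at 766 ± 26.3 CPM per kb, EEF2 at 741 ± 8.22 CPM per kb, NPM1 at 227 ± 12.8 CPM per kb and PABPC1 at 160.2 ± 4.86 CPM per kb, and EEF1G was silent. The exons of EEF1G are overlapped by AP002990.1 over 99.9% of their length on the same strand, so reads of EEF1G may have been dropped, and its 0 counts do not show that it was silent. EIF4A1, overlapped over 48.6%, was at 8.802 and 8.77 CPM.

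All 30 cell cycle genes were expressed, against 67.2% of all protein-coding genes. CDKN1A, the inhibitor p21, was highest per kb at 113 ± 0.592 CPM per kb, followed by PCNA, the replication clamp, at 99.8 ± 1.54 CPM per kb and the helicase subunits MCM7 and MCM3 at 62.6 ± 1.15 CPM per kb and 59.6 ± 0.533 CPM per kb. All 19 glycolysis genes were expressed, led by GAPDH with 594 ± 15.03 CPM per kb, ENO1 with 433 ± 3.42 CPM per kb, PKM with 283 ± 6.78 CPM per kb and ALDOA with 260.1 ± 8.44 CPM per kb. All 20 cytoskeleton genes were abundant, and 17 of the 18 chaperones were. The chaperones were led by HSPA5, the resident chaperone of the endoplasmic reticulum, at 700.0 ± 65.5 CPM per kb, and CALR and HSP90B1 were at 542 ± 26.3 CPM per kb and 505 ± 63.8 CPM per kb. HSPE1 was the exception, at 9.31 and 7.22 CPM. All 22 immediate early and stress genes were expressed, with HSPA1A at 435 and 391 CPM, IER3 at 110.1 and 124 CPM, DUSP1 at 96.3 and 93.96 CPM, JUND at 63.1 and 73.2 CPM and FOS at 32.1 and 29.6 CPM. HSPA1A and HSPA1B are near-identical copies.

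Replication-dependent histone mRNAs end in a stem-loop and mostly carry no poly(A) tail, so an oligo-dT primer captures few of them. Of 20 genes 9 were expressed and 1 was abundant, HIST1H2AC with 168 and 153 CPM. HIST1H2BK, HIST1H1C and HIST2H2BE were at 42.3 and 42.9 CPM, 42.9 and 41.9 CPM and 62.2 and 57.7 CPM, and HIST1H4C was at 0.377 and 0.0776 CPM. Of 22 long noncoding RNAs 21 could be matched and 16 were expressed. NORAD was highest per kb at 75.8 ± 1.05 CPM per kb, followed by GAS5 at 46.2 ± 3.06 CPM per kb, MALAT1 at 35.8 ± 1.64 CPM per kb and SNHG5 at 28.8 ± 0.392 CPM per kb. MEG3, an imprinted RNA, was at 199.9 and 201 CPM, and H19 at 0.692 and 0.854 CPM, and KCNQ1OT1, also imprinted, was at 10.7 and 13.97 CPM.

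Several families were mostly silent. Of 386 olfactory receptor genes 1 was expressed, OR2W3 with 1.38 and 1.71 CPM, and 330 were silent (85.5%, against 13.5% of all protein-coding genes). Of 94 keratin-associated protein genes, which build hair, none was expressed and 81 were silent. Of 39 beta-defensin genes none was expressed and 36 were silent. At the other end, 37 of 39 proteasome genes were expressed, and both exceptions, PSMA8 and PSMB11, belong to the proteasomes of testis and thymus. Of 509 ZNF genes 443 were expressed (87.03%), but only 5 were abundant. Members of these families share sequence, so reads that match several copies may have been dropped.

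Outside the families the longest run of neighbouring protein-coding genes at 0 counts lay on chromosome 1, at chr1:152776372-153348840, and held 25 genes from LCE1F to PGLYRP4. It covers the part of the epidermal differentiation complex that holds the cornified envelope genes IVL (involucrin), LOR (loricrin) and the SPRR genes. The next run, of 16 genes on chromosome 5 at 17444010 to 20575873, held mostly TAF11L copies, and the third, of 14 genes on chromosome 8 at 6924693 to 7977985, held alpha-defensins and copies of USP17L. Many genes of the latter runs have near-identical copies, so 0 counts there may also come from reads that match several places.

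**Figure D4:**
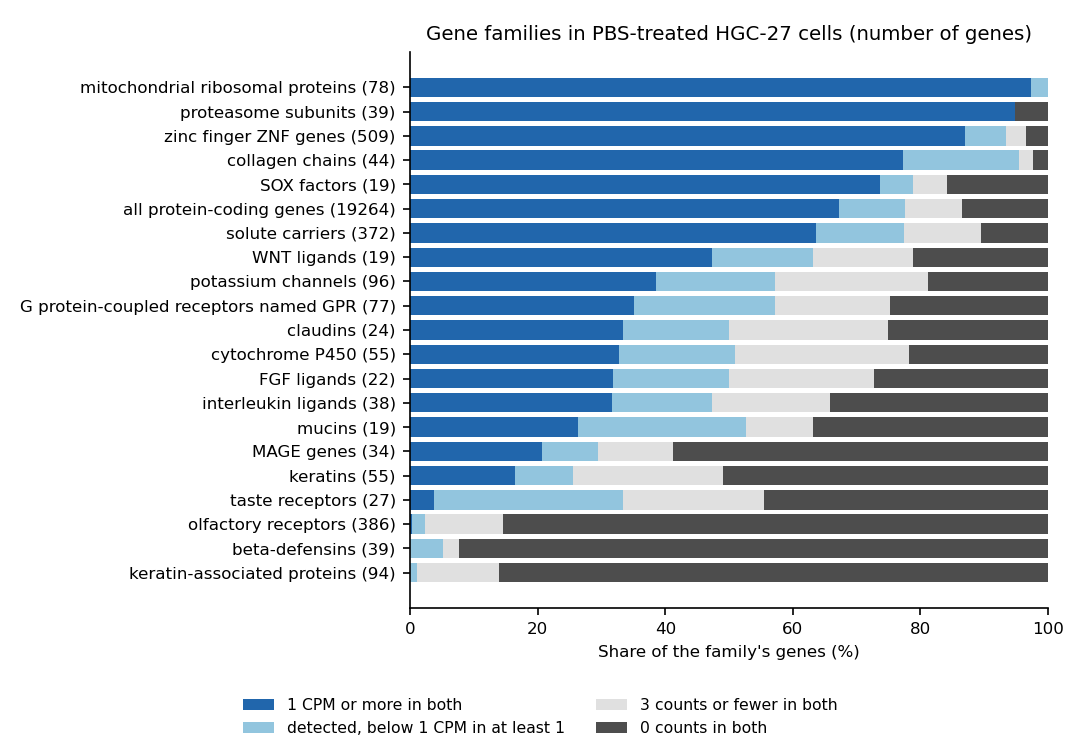
Share of the genes of 20 families, and of all 19264 protein-coding genes, by state in the PBS libraries (bars add up to 100%; number of genes in brackets). Olfactory receptors, keratin-associated proteins and beta-defensins were silent for over 85% of their members, and mitochondrial ribosomal proteins and proteasome subunits were expressed for over 94%.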

How the data were processed

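RNA of HGC-27 cells was sequenced in 4 libraries, of which the 2 PBS libraries were used. The authors deposited whole-number read counts per gene name for each library, listing only names with at least 1 count. The submitters' processing notes list the build hg38, Bowtie2 2.2.3, HISAT2 2.1.0, TopHat2 and HTSeq 0.6.0 with no role. The annotation and any use of strand are not given in the sources used here.

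Names turned into numbers were dropped (24 entries in each library, 0.234% and 0.244% of counts), 1 row was kept for each repeated name (97 and 92 names, with the same count in every row), and missing genes were set to 0. CPM is the count divided by the library total. With 15904594 and 12888029 counts, 3 counts correspond to 0.189 and 0.233 CPM. Of the names, 28535 (98.6%) matched GENCODE 29, 212 of them through a RefSeq synonym. Python 3.11.15, pandas 2.3.3 and numpy 2.4.6 were used, edgeR 4.0.16 gave the TMM factors of an alternative, and the code was tested on simulated data. Promoter sequences are those of RefSeq, and none from chromosome 8 was shown. With 1 group of 2 libraries no test was run.

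Members and lists were chosen with earlier results of these data known, and the platelet and erythroid lists after their values were seen. Genes were named from the 10 highest by CPM, the 20 highest per kb, the first 5 of each marker panel, the 4 highest of each list, the stemness, differentiation, autophagy, IL-17, HOX and clinical genes, the 5 most different between libraries in each direction, and silent members of function lists and of the 3 longest silent runs. Some of these are covered by counts only. Other named genes were chosen after their values were seen. Alternatives were other thresholds, TMM factors, other treatment of number-only or repeated names, another gene length, another added value and each library alone. Some members of the lists are counted with them but not reported here by name.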

Additional observations from a re-analysis of the deposited data

Results flagged for a closer look

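Counts on names that had been turned into numbers lie outside every value above. They came to 37779 in PBS replicate 1 and 31943 in PBS replicate 2, on 24 entries in each library. They were listed here because both are above the limit of 3 counts that a count of 0 allows, and no gene can be assigned to them.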

How the results depend on the processing

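No paired analysis was possible because the results come from no test and from 1 group. Of 176 values recomputed under an alternative, 158 stayed within 1.5 times the reported count or within 1 SD, and 18 moved. This tally is no measure of stability, because some alternatives could not move a value. Genes at 1 CPM already hold more than 10 counts, so also asking for 10 counts changed nothing. Rescaled totals cannot change which genes have 0 counts. For values judged by the SD, 1 library alone always lies within 1 SD of the mean. With at most 3 counts in both libraries in place of 0, 4310 protein-coding genes were silent. At 5 CPM in place of 1 CPM, the members expressed were 7 for simple epithelium, 0 for gastric mucosa, 1 for intestine, 2 for monocyte, 0 for lymphocyte and pan-leukocyte, 3 for neuroendocrine, 1 for melanocyte, 1 for hepatocyte and 2 for pluripotent and germ cell. At 0.5 CPM they were 12 for monocyte, 4 for melanocyte and 10 for erythroid, the last added after seeing the data. With 1 library alone the gastric mucosa panel had 2 to 4 expressed members, with 4 when replicate 1 was left out. Summing repeated names raised the share of the 10 highest genes to 12.4%. Genes 2-fold apart numbered 835 with nothing added and 1 with 5 CPM added. Leaving the platelet and erythroid genes out of the total was an alternative added after seeing the data. It gave a median of 0.0111 CPM per kb for the intestine panel, the same to 3 digits as the reported value. It was counted as moved only because its SD, taken from the medians of each library, was 0. When the longest transcript replaced merged exons, the levels per length of 319 genes rose by a median factor of 1.23, of which 194 moved by more than 1 SD and 75 by over 1.5 times, up to 3.37 times for CDKN2A. The threshold of 1 CPM rests on about 13 to 16 counts, so panels with few members near it are limited by depth.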
